A study of Mus musculus with 6 samples.

Results

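Transfer RNAs (tRNAs) for phenylalanine, tryptophan and threonine were followed in small RNA from mouse brain. All references whose name begins with Phe, Trp or Thr were taken, mitochondrial ones left aside, which gave 20 of the 190 references listed in the series: 3 Phe-GAA, 6 Trp-CCA, 5 Thr-AGT, 3 Thr-CGT and 3 Thr-TGT references. The letters after the amino acid are the anticodon, and the last number tells apart references of similar sequence. Libraries came from the brains of wild-type mice (3 libraries) and of TRMT1L knockout mice (3 libraries), which the series design calls biological triplicates. All were made from total RNA depleted of ribosomal RNA and kept between 30 and 150 bp. Strain, age, sex and the knockout allele are not stated in the labels, and no measurement of the Trmt1l transcript was used, so the genotypes rest on the labels alone. Each tRNA reference has, at each position, a count of reads (coverage), of each base read, of reads that start there, and of deletions and insertions, and a position with fewer than 30 reads is not listed.

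Each tRNA folds into the same arms, so its positions share one numbering, in which the anticodon is at 34 to 36. TRMT1L is a paralogue of TRMT1, the enzyme that dimethylates guanosine 26 of many tRNAs. Other positions often modified are 9 and 58, where adenosine can carry a methyl group on the pairing face, 32, where tRNA-Thr can carry a methylated cytidine, and 37, beside the anticodon, where tRNA-Phe carries the bulky base wybutosine. Groups on the pairing face can make reverse transcriptase stop, misread the base or skip it, which leaves read starts, mismatches or deletions. Human and mouse cells also cut tRNAs into fragments, so coverage of the 5′ and 3′ parts need not be equal.

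These stretches carry the sites described here, each written 5′ to 3′ from the reference bases of the deposited files over listed positions. Capitals mark positions 9, 26, 32, 37 and 58 where the stretch reaches them. Phe-GAA-1 has the highest mean coverage, and Trp-CCA-5 and Trp-CCA-1 differ at 1 of the 52 positions listed in both, next to position 58.
Phe-GAA-1, positions 4 to 58: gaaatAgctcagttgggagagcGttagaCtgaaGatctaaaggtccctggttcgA
Trp-CCA-5, positions 35 to 76: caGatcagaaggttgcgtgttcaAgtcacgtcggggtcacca
Trp-CCA-1, positions 41 to 75: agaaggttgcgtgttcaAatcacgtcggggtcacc
Trp-CCA-3, positions 17 to 35: cggtagcgcGtctgaCtcc
Thr-AGT-2, positions 36 to 71: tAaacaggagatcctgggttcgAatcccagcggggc
Thr-CGT-2, positions 29 to 74: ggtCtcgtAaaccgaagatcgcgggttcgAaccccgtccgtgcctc
Thr-TGT-3, positions 13 to 62: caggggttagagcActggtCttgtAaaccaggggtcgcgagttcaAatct
The only letter that separates Trp-CCA-1 from Trp-CCA-5 where both are listed is A58G, with the base of Trp-CCA-1 first and the position counted from the 5′ end of the reference, which is canonical position 59. Trp-CCA-2 differs from Trp-CCA-1 by T16C, T46C and A56G, and Trp-CCA-3 and Trp-CCA-4 do so by T16C. Trp-CCA-6 has no difference from Trp-CCA-1 over 34 shared positions. The 3 Phe references have no difference over the 42 to 46 positions that pairs of them share, and neither have Thr-TGT-2 and Thr-TGT-3 over 50.

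The whole tRNA table held 6151209, 6295061 and 6274159 base calls in the wild-type libraries and 8295437, 7981301 and 8797395 in the knockout libraries. The Phe, Trp and Thr references took 0.311% to 0.391% of them in the wild type and 0.395% to 0.489% in the knockout. These calls were summed over listed positions only. The members had 406, 354 and 414 listed positions in the wild-type libraries against 651, 638 and 528 in the deeper knockout libraries. The shares were therefore not read as a change in abundance. The median of the highest coverage over all listed references lay between 219 and 274 reads in the wild type and between 377.5 and 460 in the knockout. By mean highest coverage, with an unlisted reference at 0, the members ranked between 118 and 186 of 190, so they belong to the poorly covered tRNAs. Of the 20, 13, 16 and 14 were listed in wild-type replicates 1, 2 and 3, and 18, 19 and 16 in knockout replicates 1, 2 and 3. In all 6 libraries 10 were listed, namely the 3 Phe references, Trp-CCA-1, Trp-CCA-3, Trp-CCA-4, Trp-CCA-5 and Trp-CCA-6, Thr-AGT-2 and Thr-CGT-2. Wild-type replicate 2 stood apart, with bases on Thr-CGT-2, Thr-TGT-3 and Trp-CCA-5 that were rare or absent in the other libraries, and results that rest on it are given with and without it.

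Near-identical references often carried the same counts. Thr-AGT-1 and Thr-AGT-3 had identical coverage and events at 85.3% of the listed values they shared, Trp-CCA-1 and Trp-CCA-6 at 81.1%, and Trp-CCA-1 and Trp-CCA-3 at 73.3%. No pair was identical throughout, so no reference was dropped as a copy, and members of a family are not independent measurements of it. Their numbering was not matched to single genes. RefSeq's annotation of GRCm38.p6 lists 7 tRNA-Phe-GAA genes on 5 chromosomes, 8 tRNA-Trp-CCA genes on 3, 9 tRNA-Thr-AGT genes on 4, 4 tRNA-Thr-CGT genes on 3 and 4 tRNA-Thr-TGT genes on 3. These genes are 72 to 74 bp long.

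By mean highest coverage over the 6 libraries, the 3 Phe references ranked above each Trp and Thr reference, although Thr-CGT-2, Thr-TGT-2 and Thr-TGT-3 lay above all 3 in wild-type replicate 2 and Trp-CCA-5 did so in wild-type replicate 3, and Trp-CCA-5 lay above Phe-GAA-2 in knockout replicates 1 and 3. In wild-type replicate 2 Trp-CCA-5 and Thr-AGT-2 also lay above Phe-GAA-2. The highest coverage of Phe-GAA-1 was 136, 73 and 79 reads in wild-type replicates 1 to 3 and 154, 170 and 182 reads in knockout replicates 1 to 3, or 96.0 ± 34.8 against 169 ± 14 (SD, n = 3 each). Phe-GAA-2 had 128, 55 and 59 reads in wild-type libraries against 134, 145 and 155 in knockout libraries. Phe-GAA-3 had 121, 76 and 72 reads against 151, 169 and 165. On all 3, each knockout library lay above each wild-type library before any scaling, and wild-type replicate 1 lay close to the knockout libraries. The same held for 57.2% of all 145 references listed in all libraries, whose median ratio of knockout to wild-type mean coverage was 1.40, so this count for Phe was not read as a result about Phe.

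Trp references were led by Trp-CCA-5, with 65, 57 and 111 reads in wild-type libraries against 141, 72 and 161 in knockout libraries (77.7 ± 29.1 against 125 ± 46.7, SD, n = 3 each), and its groups overlapped. Trp-CCA-1 had 37, 39 and 55 reads against 58, 43 and 48, and Trp-CCA-3, Trp-CCA-4 and Trp-CCA-6 lay between 37 and 75 reads in every library. Trp-CCA-2 was listed in wild-type replicate 2 with 41 reads and in the knockout libraries with 66, 47 and 49.

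Thr references differed by anticodon and by library. Thr-AGT-2 was even, with 52, 58 and 38 reads in wild-type libraries against 61, 52 and 53 in knockout libraries. Thr-CGT-2 had 63, 201 and 41 reads in wild-type libraries against 110, 67 and 44 in knockout libraries, so that its wild-type mean of 102 ± 86.7 (SD, n = 3) came to 52 reads without replicate 2. Thr-TGT-3 was not listed in wild-type replicate 1, had 94 and 51 reads in replicates 2 and 3, and had 50, 108 and 71 reads in the knockout libraries. Thr-AGT-1 and Thr-AGT-3 were listed in 5 libraries with 34 to 71 reads, Thr-TGT-2 in 5 libraries with 50 to 105, Thr-CGT-1 in 4 with 30 to 42, and Thr-AGT-4 in 3 with 34 to 38. The remaining Thr references, Thr-AGT-7 (1 library), Thr-CGT-4 and Thr-TGT-1 (2 libraries each), reached between 30 and 37 reads.

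**Figure D1:**
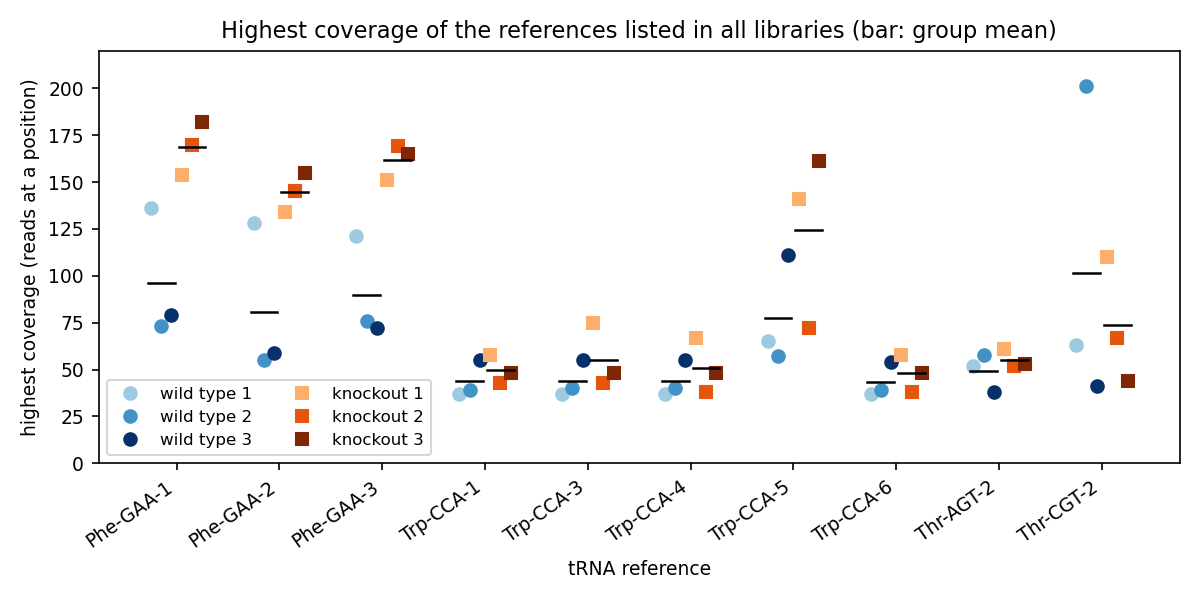
Highest coverage (reads at one position, linear axis) of the 10 Phe, Trp and Thr references listed in all 6 libraries, with one point per library (circles, wild type; squares, knockout) and a bar at each group mean. Counts are not scaled for depth: the Phe knockout libraries lie at 134 to 182 reads, and wild-type replicate 2 lies at 201 reads on Thr-CGT-2 while the other libraries lie between 41 and 110.

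After scaling for depth, none of the 10 references was called different between the genotypes. With edgeR's quasi-likelihood test on the highest coverage of each reference, 0 of 10 had an adjusted p under 0.05 and 0 had an unadjusted p under 0.05, while 22.8% of all 145 references were called, and DESeq2 called 0 of 10 as well. The log2 fold changes of knockout over wild type were 0.33 for Phe-GAA-1 (SE 0.27, edgeR adjusted p 0.450), 0.36 for Phe-GAA-2 (SE 0.32, adjusted p 0.500) and 0.37 for Phe-GAA-3 (SE 0.25, adjusted p 0.347). Trp-CCA-5 had 0.18 (SE 0.35, edgeR adjusted p 0.751), and the other 4 Trp references lay between -0.34 and -0.16. Thr-AGT-2 had -0.32 (SE 0.27, edgeR adjusted p 0.455). Thr-CGT-2 had -0.94 (SE 0.57, edgeR adjusted p 0.296), and without wild-type replicate 2 the value was 0.04. Over the 10 members 4 values were positive and the median was -0.22, and over all 145 references the median was -0.0041. Upper-quartile scaling, which moved the median of all references to -0.49 and called 49% of them, called 3 of the 10, Thr-AGT-2, Thr-CGT-2 and Trp-CCA-6, all lower, and turned the sign of the 3 Phe references and of Trp-CCA-5. The median per-position coverage in place of the highest turned Phe-GAA-1 to -0.17 and Trp-CCA-5 to -0.0019. With upper-quartile scaling and without wild-type replicate 2, Thr-CGT-2 had -0.52 (edgeR adjusted p 0.263) and Thr-AGT-2 -0.75 (adjusted p 0.102), and 2 of 12 members tested, Trp-CCA-1 and Trp-CCA-6, were called, against 53.1% of all 147 references. Leaving out 1 library at a time moved the log2 fold changes within 0.18 to 0.66 for Phe-GAA-1, 0.16 to 0.85 for Phe-GAA-2, 0.20 to 0.63 for Phe-GAA-3, -0.087 to 0.53 for Trp-CCA-5 and -0.47 to -0.17 for Thr-AGT-2. The highest Phe values were those without wild-type replicate 1 and the lowest those without wild-type replicate 2 (Phe-GAA-1 and Phe-GAA-2) or knockout replicate 2 (Phe-GAA-3). The Trp-CCA-5 range ran from the fit without knockout replicate 3 to that without wild-type replicate 3, and the Thr-AGT-2 range from that without wild-type replicate 3 to that without wild-type replicate 2. Without wild-type replicate 1, Phe-GAA-2 was called higher (0.85, edgeR adjusted p 0.0261), with 16.9% of all references called in that fit. The standard errors leave room for changes of either direction, so none of these references is shown to be equal in the genotypes.

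The families were covered in different parts of the tRNA. Phe reads lay mainly on the 5′ part: Phe-GAA-1 was listed from position 5, 13 and 14 to 50, 39 and 40 in the wild-type libraries and from 5, 4 and 4 to 49, 48 and 58 in the knockout libraries. Its highest coverage was at positions 27 to 32 in every library. Trp-CCA-5 was listed from canonical position 35 or later in 5 libraries, and from position 17 in knockout replicate 2, and was highest at positions 55 to 58. Thr-AGT-2 was listed from position 36 onward in each library, and the first 2 anticodon bases and everything before them had fewer than 30 reads. Thr-TGT-3 was listed from position 13 or 14 in knockout replicates 2 and 3 and from 17 in wild-type replicate 3, and from 36 and 38 in knockout replicate 1 and wild-type replicate 2.

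Per library, the balance of the parts was taken as the log2 of the summed highest coverage up to position 33 over that from position 37 on, with 29 reads for a side that was not listed. Near-identical references share counts, so these sums can count the same reads more than once. In wild-type replicate 1, for instance, Trp-CCA-1, Trp-CCA-3, Trp-CCA-4 and Trp-CCA-6 each had 37 reads. For the 3 Phe references it was 0.47, 0.68 and 0.83 in wild-type libraries and 0.79, 0.95 and 0.47 in knockout libraries, above 0 in all 6 libraries. For the 5 Trp references listed in all libraries, which leaves out Trp-CCA-2, it was -0.49, -0.57 and -1.19 in wild-type libraries and -0.70, -0.19 and -1.18 in knockout libraries, and for Thr-AGT-2 and Thr-CGT-2 together it was -0.72, -2.16 and -0.45 against -0.83, -0.77 and -0.74. Each Phe reference had more coverage 5′ of the anticodon in each library, and Thr-AGT-2, Thr-CGT-2, Trp-CCA-5 and Trp-CCA-6 had more 3′ of it. The other Trp references were mixed: the 5′ part was higher in knockout replicate 1 on Trp-CCA-2, Trp-CCA-3 and Trp-CCA-4 (66 against 54, 75 against 58 and 67 against 58 reads), in knockout replicate 2 on Trp-CCA-1 and Trp-CCA-3 (43 against 38 reads each) and in knockout replicate 3 on Trp-CCA-2 (49 against 47 reads). Since unlisted sides were set to 29 reads, the Trp and Thr values are upper bounds where the 5′ side was missing. The Phe value of wild-type replicate 3 is a lower bound, because Phe-GAA-2 had no listed 3′ side there. Between the genotypes the difference, knockout minus wild type, was 0.07 for Phe (exact two-sided permutation test, p 0.7, n = 3 each), 0.06 for Trp (exact permutation p 0.9) and 0.33 for Thr (exact permutation p 1). In this design 3 against 3 libraries cannot give a p under 0.1. The Thr difference turned to -0.20 without wild-type replicate 2. That of Phe turned below 0 without wild-type replicate 1 or knockout replicate 2 (-0.022 and -0.031), and that of Trp without wild-type replicate 3 or knockout replicate 2 (-0.16 and -0.19), so no direction was read for any of the 3. With mean coverage and unlisted positions at 0 the Phe difference was -1.16 (exact permutation p 0.3, n = 3 each). With the best-covered reference of each family alone, a setting chosen after seeing the data, the Trp difference was -0.47 (exact permutation p 0.5, n = 3 each).

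**Figure D2:**
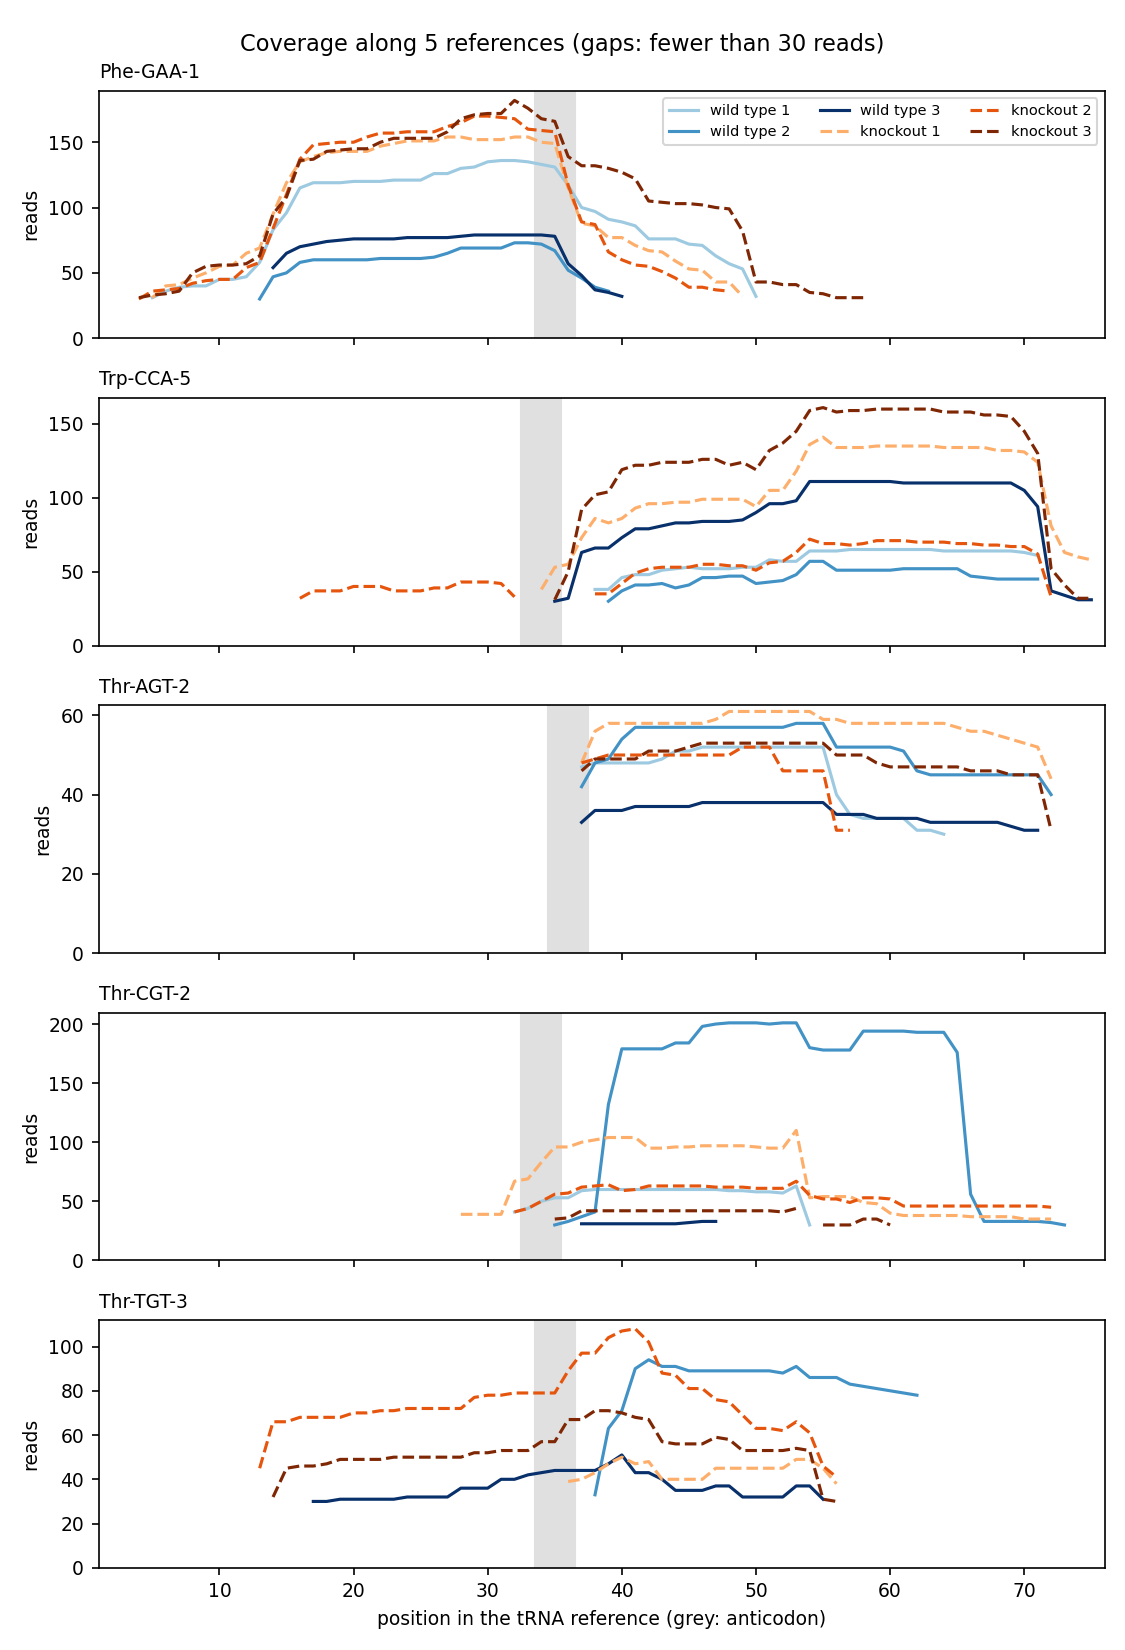
Coverage (reads, linear axis from 0) along 5 references, one line per library (solid, wild type; dashed, knockout), against the position in the reference, with the anticodon in grey and gaps where fewer than 30 reads were present. Phe-GAA-1 is highest at positions 27 to 32 and falls across the anticodon, Trp-CCA-5 and Thr-AGT-2 lie mainly 3′ of the anticodon, and Thr-CGT-2 in wild-type replicate 2 rises to 201 reads.

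Read starts, counted at the first base of a read and at listed positions only, were gathered at few of the listed positions. Totals of counted starts therefore cover unlike stretches where the listed range differs between libraries. On Phe-GAA-1, positions 14 to 16 in the D arm took 57 of 115, 28 of 46 and 49 of 57 counted starts in the wild type and 66 of 129, 79 of 147 and 71 of 159 in the knockout. This is 65.5% ± 18.6 against 49.9% ± 4.68 (SD, n = 3 each), and the groups overlapped. Listing began at position 13 and 14 in wild-type replicates 2 and 3 but at 4 or 5 in the other libraries. Starts before 13 thus enter only the totals of those other libraries, and no difference was read from these shares. At position 14 alone, 25 of 83, 17 of 47 and 33 of 54 reads started in the wild type and 26 of 95, 26 of 84 and 32 of 95 in the knockout. Coverage then fell between positions 35 and 37, with changes of -23.7%, -31.3% and -38.5% in wild-type libraries and -40.9%, -43.7% and -20.5% in knockout libraries.

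Starts on Trp-CCA-1 were at position 55, in the T loop, for 23 of 25, 21 of 28 and 6 of 33 counted starts in the wild type and 20 of 37, 21 of 53 and 17 of 26 in the knockout. Position 55 was the first one listed in wild-type replicates 1 and 2, while replicate 3 was listed from 41 and knockout replicate 2 from 17. On Trp-CCA-6, not listed 5′ of 55 in knockout replicate 2, the count there was 21 of 30. These shares therefore do not compare between libraries. On Trp-CCA-3 the 5′ part began at position 17, in the D loop, where 45 of 65 reads started in knockout replicate 1 and 19 of 30 in knockout replicate 2, but 4 of 32 in knockout replicate 3. Trp-CCA-5 also had starts at positions 35 to 41, from the anticodon into its stem, which took 28.1% to 56.2% of starts in the wild type and 16.7% to 63.9% in the knockout. The spread between libraries of 1 genotype was thus as wide as that between genotypes, but the totals cover unlike stretches. In the reference's own count the window is 34 to 40. Listing began there at 38 and 39 in wild-type replicates 1 and 2, at 16 in knockout replicate 2 and at 34 or 35 in the others. On Thr-AGT-2 position 36, the last anticodon base, took 32 of 37, 42 of 57 and 23 of 28 counted starts in the wild type and 47 of 60, 23 of 27 and 37 of 46 in the knockout. Its shares of 80.8% ± 6.51 and 81.3% ± 3.51 (SD, n = 3 each) overlapped between the genotypes. Position 36 was the first listed position in each library, so starts 5′ of it were not counted and these shares are upper bounds. Thr-CGT-2 reads in wild-type replicate 1 and in knockout replicates 1 and 2 started often at position 33 (31 of 41, 28 of 67 and 19 of 41 reads there), the base before the anticodon. In wild-type replicate 2 they started at positions 40 and 41 instead (89 of 132 and 47 of 179 reads).

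Position 26 carried mismatches and deletions on Phe references in both genotypes. On Phe-GAA-1 each mismatch there was G26T, counted from the 5′ end of the reference with the reference base first, in 21 of 118, 12 of 56 and 30 of 71 bases read in the wild type and 41 of 147, 23 of 134 and 13 of 142 in the knockout. The shares were 27.2% ± 13.2 and 18.1% ± 9.40 (SD, n = 3 each), and the lowest and highest libraries of the groups overlapped. Deletions of the base were found in 8, 6 and 6 reads in wild-type libraries against 4, 24 and 11 in knockout libraries. Mismatched or deleted reads made 23.0%, 29% and 46.8% in the wild type, with Wilson 95% intervals from 16.5% to 31.1%, 19.2% to 41.3% and 36% to 57.8%. They made 29.8%, 29.7% and 15.7% in the knockout, with intervals of 23.1% to 37.5%, 23.2% to 37.3% and 10.8% to 22.3%, and such intervals cover counting error only. The highest share was in wild-type replicate 3 and the lowest in knockout replicate 3, and the remaining 4 libraries lay between 23.0% and 29.8%.

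Phe-GAA-2 and Phe-GAA-3 carried the same mismatch and deletion counts at position 26 as Phe-GAA-1 in every library. The reads that match G there differed in number (97, 44 and 41 on Phe-GAA-1 against 87, 26 and 21 on Phe-GAA-2 in the wild type), so the higher percentages of Phe-GAA-2 came from equal event counts over a smaller total. At the other positions examined Phe reads matched the reference. Position 9 had 0 mismatches of 40 bases in wild-type replicate 1 and of 50, 44 and 55 in the knockout, with upper Wilson bounds of 6.53% to 8.76%, and was not listed in the other wild-type libraries. Position 32 had 0 mismatches in each library of 73 to 182 bases, and position 37 had 1 of 100 in wild-type replicate 1 and 0 of 46 to 132 in the others. Position 58 was listed in knockout replicate 3 alone, with 0 of 31.

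Position 26 of the Trp references, a G too, was listed in few libraries. On Trp-CCA-3, 8 of 30 bases were mismatched in wild-type replicate 1, and 23 of 60, 2 of 38 and 18 of 31 in the knockout libraries. In knockout replicate 1 the 23 were 16 T and 7 A, the 2 of replicate 2 were A, and the 18 of replicate 3 were T. Deletions added 10 of 70 reads in knockout replicate 1 and 2 of 33 in replicate 3. The knockout libraries therefore ranged from 5.26% to 60.6% in mismatched or deleted reads, with 1 wild-type library at 26.7%, and no comparison of the genotypes was possible. Trp-CCA-1 and Trp-CCA-5, listed there in knockout replicate 2 only, had 1 mismatch of 37. Among Thr references the base at 26 is G in Thr-AGT-1 and Thr-AGT-7, listed there in knockout replicate 2 alone with 0 of 32 and 0 of 31 bases mismatched and no deletion. It is A in Thr-TGT-3, with 0 of 32 mismatched in wild-type replicate 3 and 2 of 72 and 0 of 50 in knockout replicates 2 and 3.

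Position 58 was misread on Trp-CCA-5 and hardly on the other Trp references. On Trp-CCA-5 43 of 65, 25 of 51 and 67 of 111 bases were mismatched in the wild type and 83 of 134, 45 of 68 and 114 of 159 in the knockout, which gives 58.5% ± 8.72 and 66.6% ± 4.89 (SD, n = 3 each) with overlapping groups. Most were A57G in the reference's own count, from 49.0% to 61.5% of bases in the wild type and 56% to 61.9% in the knockout. A57T reached 7.21% in wild-type replicate 3 and 15.7% in knockout replicate 3, and was 3, 0, 0 and 3 reads in wild-type replicates 1 and 2 and knockout replicates 1 and 2. Trp-CCA-1, which differs from Trp-CCA-5 at the next base, had 1 of 36, 0 of 33 and 3 of 48 mismatches in the wild type and 1 of 49, 0 of 34 and 0 of 45 in the knockout. Trp-CCA-2, Trp-CCA-3, Trp-CCA-4 and Trp-CCA-6 lay between 0% and 6.38% in each library that listed them. Position 58 of Trp-CCA-5 had no deletion in any library, of 51 to 158 reads.

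**Figure D3:**
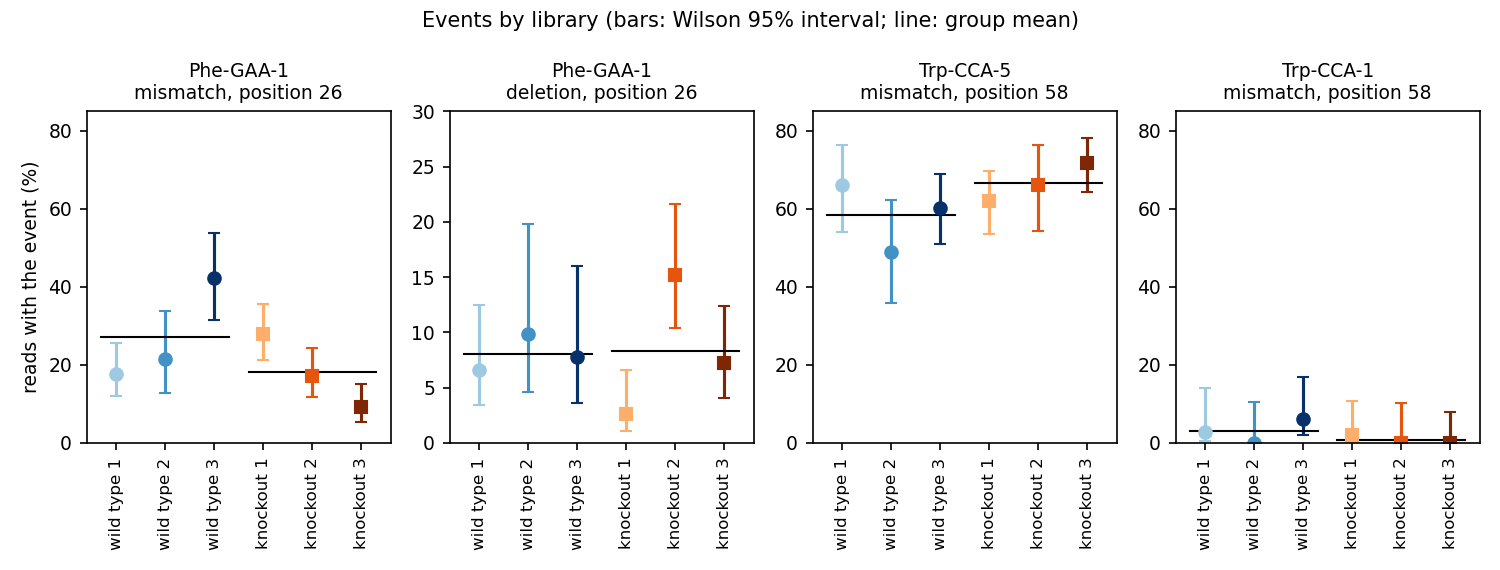
Share of reads with the event (%, linear axes from 0, the deletion panel on a narrower scale) at position 26 of Phe-GAA-1 and position 58 of Trp-CCA-5 and Trp-CCA-1, one point per library with its Wilson 95% interval and a line at each group mean. The mismatch shares of Phe-GAA-1 average 27.2% and 18.1%, those of Trp-CCA-5 58.5% and 66.6%, with overlapping libraries, and Trp-CCA-1 stays at or under 6.25%.

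Of 63 member positions with at least 50 bases read in each library, 3 had a mean mismatch of 15% or more, position 26 of Phe-GAA-1 and of Phe-GAA-3 and position 58 of Trp-CCA-5, while 59 were under 1%. Among all references, 36 of 5069 such positions reached 15%. No member site had the 100 reads in each library that the main site test asked for, so members entered none of its comparisons. At a minimum of 50 reads, a quasi-binomial test with its dispersion moderated by limma (limma quasi-binomial) covered 4 member mismatch sites, 23 member stop sites and 2 member deletion sites. It called 0 of the 4 mismatch sites (0 at an unadjusted p under 0.05, against 0% of all 212 sites called and 14 at an unadjusted p under 0.05). Phe-GAA-1 at position 26 differed by -9.09 percentage points (adjusted p 0.709), Phe-GAA-3 there by -10.6 points (adjusted p 0.673) and Trp-CCA-5 at position 58 by 8.09 points (adjusted p 0.562), each by the limma quasi-binomial test. These differences moved when single libraries were left out: to -1.54 points for Phe-GAA-1 and -2.12 points for Phe-GAA-3 without wild-type replicate 3, and to -14 and -15.5 points without knockout replicate 1. That of Trp-CCA-5 moved to 3.35 points without wild-type replicate 2 and to 11.9 points without wild-type replicate 1. At position 62 Trp-CCA-5 had mismatches in 2 of 65, 7 of 52 and 0 of 110 bases in the wild type and in none of 71 to 160 in the knockout (5.51% ± 7.05 against 0%, limma quasi-binomial adjusted p 0.474). The wild-type mean was 1.54% without replicate 2, where the pooled rate was too low for the test. That library also had 7 of 43 mismatches at position 52 of Trp-CCA-5, against 2 of 58, 0 of 96 and, in the knockout, 0 of 56 to 132. Deletions at position 26 of Phe-GAA-1 made 8.08% ± 1.63 and 8.34% ± 6.35 (SD, n = 3 each, limma quasi-binomial adjusted p 0.991), and 0% of all 83 deletion sites were called. No insertion site of the members was covered enough for the test.

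Among the 23 stop sites, which count reads that start at a position, 0 were called, against 0.204% of all 1470 sites, and 2 had an unadjusted p under 0.05, as did 116 of the 1470. At 2 of the 23 the groups did not overlap, against 12.6% of all sites. These 2 are position 22 of Phe-GAA-1 and of Phe-GAA-3, references that are not independent. Starts there made 0% in the wild type and 3.25% ± 0.518 in the knockout on Phe-GAA-3 (SD, n = 3 each, limma quasi-binomial adjusted p 0.600), and 0.546% ± 0.946 against 2.66% ± 0.714 on Phe-GAA-1 (limma quasi-binomial adjusted p 0.637). On Phe-GAA-3 that position had 59 to 159 reads, so these shares rest on few reads in each library. A limma fit on the arcsine square root of the share called the site on Phe-GAA-3 (adjusted p 0.00461), where the wild type is 0% with no spread, and not on Phe-GAA-1 (adjusted p 0.559), and called 0.34% of all sites. In the fits with the replicate block or without 1 library, the site on Phe-GAA-3 had limma quasi-binomial adjusted p between 0.604 and 0.775. On Phe-GAA-2, too thinly covered for the test, the groups overlapped there. On Phe-GAA-1 starts at position 15 were 12.2% ± 5.59 in the wild type and 18.6% ± 5.95 in the knockout (limma quasi-binomial adjusted p 0.743), with overlapping groups. With 1 library left out at a time, this difference ranged from 3.38 points, without wild-type replicate 2, to 9.75 points. At position 26 of Phe-GAA-1, starts were 5 of 126, 1 of 62 and 0 of 77 in the wild type and 0 of 151, 158 and 153 in the knockout. On Trp-CCA-5 starts at position 56 were 0% in the wild type and 2.28% ± 2.51 in the knockout (limma quasi-binomial adjusted p 0.600).

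Thr references had mismatches that belonged to single libraries. On Thr-CGT-2 wild-type replicate 2 read A42G in 137 of 179 bases, A45G in 137 of 184 and A58G in 155 of 194, again counted from the 5′ end of the reference. The other libraries read A42G in 0 of 31 to 95 bases and A45G in 0 or 1 of 32 to 96, and A58G in 3 of 49, 0 of 53 and 0 of 35 in the knockout, while wild-type replicates 1 and 3 did not list that position. The reads of wild-type replicate 2 without the change at reference position 42 numbered 42, which is within the 31 to 95 reads of the other libraries there. Canonical position 58 of Thr-CGT-2, reference position 57, had 0 mismatches of 178 in that library and 0 of 54, 49 and 30 in the knockout. Among all references, 7 positions on 4 references were mismatched in at least 50% of reads in wild-type replicate 2 and in at most 10% in the others, 3 of them on Thr-CGT-2. No other library had such a position among those that at least 3 other libraries listed.

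**Figure D4:**
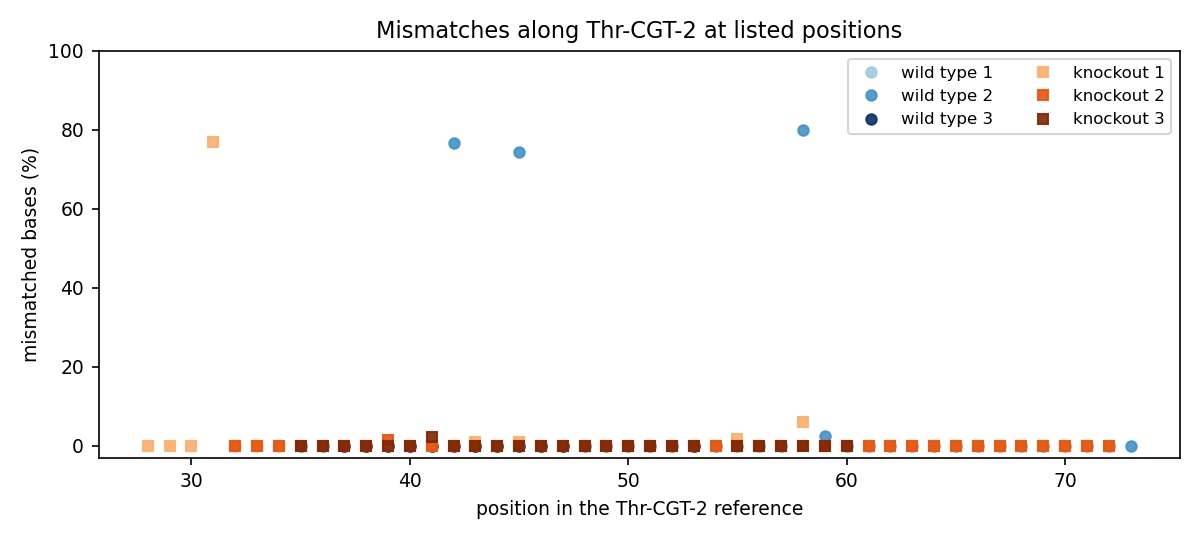
Mismatched bases (%, linear axis) at each listed position of the Thr-CGT-2 reference, one point per library (circles, wild type; squares, knockout). Wild-type replicate 2 stands at 76.5%, 74.5% and 79.9% at reference positions 42, 45 and 58, knockout replicate 1 at 76.9% at reference position 31, and all other points lie at or under 6.12%.

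The Thr-TGT-3 reference showed a like pattern in the same library. In wild-type replicate 2 an insertion after position 44 was present in 69 of 91 reads, C50G in 69 of 89 bases and A57G in 69 of 83, the last at a position no other library listed. The insertion was in 4 of 35 reads of wild-type replicate 3, 4 of 40 of knockout replicate 1 and 0 of 87 and 0 of 56 in knockout replicates 2 and 3, and C50G was in 4 of 32, 4 of 45, 0 of 63 and 1 of 53 bases of the same libraries. Thr-TGT-3 in wild-type replicate 2 was listed from position 38, while the 5′ part was covered in wild-type replicate 3 and knockout replicates 2 and 3. The source of these reads was not tested.

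At position 32 Thr-CGT-2 was listed in knockout replicate 1 alone, where 30 of 39 bases were mismatched (76.9%, lower Wilson bound 61.7%): 21 T, 7 G and 2 A against 9 that matched the C of the reference. In the same library 21 of 32 reads of Thr-TGT-1 had position 32 deleted. Thr-TGT-3 had 0 mismatches there in 40 bases of wild-type replicate 3 and in 79 and 53 of knockout replicates 2 and 3. With 1 knockout library and no wild-type library, the genotypes could not be compared at this position of Thr-CGT-2. Position 37 of Thr-AGT-2, Thr-CGT-2 and Thr-TGT-3 had 0 mismatches in each library that listed it, of 33 to 97 bases. Position 58 of Thr-AGT-2 had 0 of 34, 0 of 52 and 1 of 34 mismatches in the wild type and 7 of 58 and 7 of 48 in knockout replicates 1 and 3. Knockout replicate 2 did not list it, so the test, which needs all libraries, did not include it. On Thr-AGT-1 and Thr-AGT-3 it had 0 of 46 and 0 of 30 mismatches in wild-type replicates 1 and 3 and 3 of 55, 0 of 45 and 1 of 31 in the knockout, so those groups overlapped.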

How the data were processed

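Per the file headers, the deposited files hold raw counts by tRNA reference and position (coverage, A, T, C and G bases, stops, deletions and insertions), along with a base quality score that was not used. Per the submitters' processing notes, GATK 3.5 was used by the authors. The aligner and the reference set are not given in the sources used here. Coverage did not exceed 8032 reads, a ceiling no member came near. Coverage of at least 7900 was reached by 9, 9 and 11 references in wild-type libraries and by 14, 13 and 15 in knockout libraries. These references enter the depth scaling. Without them edgeR called 0 of 10 members and 20 of 128 references, with a member median of -0.32. Log2 fold changes were then 0.25 (Phe-GAA-1), 0.071 (Trp-CCA-5) and -0.41 (Thr-AGT-2). Stops and deletions were shifted by 1 position after checks in the files.

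Canonical numbers were set from the anticodon. Sites needed 100 reads in each library (50 as alternative) and a pooled rate of 1%. Shares were tested with a quasi-binomial model with the dispersion moderated by limma 3.58.1 (R 4.3.3) and floored at 1, abundance with edgeR 4.0.16 (TMM, filterByExpr) or DESeq2 1.42.0, both with Benjamini-Hochberg adjustment over the whole table at 0.05, and 5′ to 3′ ratios with exact permutation tests. p-values measure the spread between these samples. Replicates of a genotype differed by more than sampling noise. Tested on simulated data at the minimum of 50 reads with no change, the models made 0 calls; with odds multiplied by 4 they recovered 37.7% of 53 changed mismatch sites of 207, 20% of 200 stop sites of 1439 and 52.4% of 21 deletion sites of 82 (11 of 12 deletion calls were true), and with 4-fold changes 100% of 36 references of 145. Named sites were positions 9, 26, 32, 37 and 58 of the best covered reference, the 3 highest shares and the 3 smallest p of each event kind. Sites listed in single libraries, windows of read starts and the bases of wild-type replicate 2 were chosen after their values were seen. The members and lists were chosen with earlier results of these data known.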

Additional observations from a re-analysis of the deposited data

How the results depend on the processing

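The number of member references called for abundance was 0 of 10 and became 3 of 10 under upper-quartile normalization, which called 71 of 145 references, and ranged from 0 to 1 when each library was left out. Under upper-quartile normalization the log2 fold changes of abundance turned to -0.18 (Phe-GAA-1), -0.16 (Phe-GAA-2), -0.14 (Phe-GAA-3) and -0.31 (Trp-CCA-5), with a median of -0.49 over all references, and with the median per-position coverage to -0.17 (Phe-GAA-1) and -0.0019 (Trp-CCA-5). Upper-quartile normalization without wild-type replicate 2, chosen after seeing the data, called 2 of 12 members and 78 of 147 references and gave -0.41 (Phe-GAA-1), -0.43 (Phe-GAA-2), -0.31 (Phe-GAA-3) and -0.55 (Trp-CCA-5). Leaving out each library in turn gave -1.37 to 0.040 for Thr-CGT-2, -0.47 to 0.037 for Trp-CCA-3 and -0.087 to 0.53 for Trp-CCA-5. The 5′ to 3′ difference became -1.16 for Phe with the mean coverage and unlisted positions at 0, and for Trp -0.11 with the mean coverage and unlisted positions at 29 and -0.47 with the best covered reference alone, an alternative chosen after seeing the data. With each library left out it ranged from -0.031 to 0.21 for Phe, -0.19 to 0.30 for Trp and -0.20 to 0.66 for Thr. In percentage points, differences in starts at position 32 ranged from -0.48 to 2.26 (Phe-GAA-1), -1.68 to 2.65 (Phe-GAA-2) and -1.18 to 1.45 (Phe-GAA-3), and those in deletions at position 26 from -3.16 to 3.11 (Phe-GAA-1) and -3.14 to 2.995 (Phe-GAA-3). The cause was not tested. No member site passed the minimum of 100 or 500 reads, and mean coverage with unlisted positions at 0 gave no value for Trp and Thr. Over all references, deviations of same-numbered libraries correlated at 0.1001, 0.037 and 0.0901, and 6 of 6 libraries matched best the library of their own number. These correlations are low and the 6 matches are not independent of each other, so no pairing of libraries was read from them. With the replicate number as a block, edgeR called 0 of 10 members and 35 of 145 references, and the limma quasi-binomial adjusted p for mismatches at position 26 of Phe-GAA-1 was 0.878, for a difference of -9.09 points that the block cannot change.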
